A study of Mus musculus with 12 samples.

Results

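Endothelial cells form the inner lining of blood vessels, and 10 genes that mark them were followed here through mouse epidermis and papilloma, each treated with camphor white oil (CWO) or vehicle. The genes were taken by name as Pecam1, Cdh5, Kdr, Flt1, Tek, Tie1, Emcn, Vwf, Plvap and Eng, all common markers of endothelium. They are 10 of the 23235 gene symbols measured, and each was listed in all 12 libraries. All mice were FVB/NJ, with 3 libraries in each of 4 groups. Epidermis was lifted off with ammonium thiocyanate, 24 h after 400 µL of 20% CWO, an essential oil, or of its acetone vehicle, and the age of these mice is not given in the labels. Papillomas are benign skin tumours that can progress; those of both tumour groups were induced from 6 to 7 weeks of age with 1 dose of 400 nmol DMBA, a carcinogen, and then 10 nmol TPA, a tumour promoter, 2 times a week. For both tumour groups the labels also give 15 weeks for a high tumour burden. Tumour-bearing mice received CWO or vehicle for 6 weeks, and each papilloma library pools 4 tumours of similar size from 1 of 3 mice per group. The labels do not say that each epidermis library came from a separate mouse, so p-values there measure the spread between samples. The labels name no DMBA or TPA for the epidermis mice, so tumour tissue, carcinogen, promoter, length of treatment and method of isolation cannot be told apart in any comparison of papilloma with epidermis.

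The products of these genes cover the main functions of the vessel wall. Pecam1 and Cdh5 hold endothelial cells together at their junctions. Kdr and Flt1 encode receptors for VEGF, the growth factor that drives vessel growth; Kdr carries most of the signal and Flt1 binds the ligand tightly and acts largely as a decoy. Tek is the receptor for angiopoietins and Tie1 its partner, and together they govern vessel stability. Eng is a co-receptor for ligands of the BMP and TGF-beta family. Emcn is a surface sialomucin of capillary and venous endothelium, Plvap forms the diaphragms of fenestrae and caveolae, and Vwf is a secreted clotting protein stored in endothelial granules. Normal epidermis holds no blood vessels, which lie in the dermis below, whereas papillomas grow on a vascular stroma.

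Endothelial genes are commonly read by ETS-family transcription factors, whose core site is GGAA. The stretch of 250 bases before the start of transcription was available from RefSeq on GRCm38.p6 for 6 members: Kdr, Flt1, Tek, Tie1, Emcn and Eng. Flt1, Emcn and Eng, all higher in papillomas, are shown beside Tek, whose tissues overlapped under vehicle, with each AGGAAG, or its reverse complement CTTCCT, in capitals. They lie at chr5:147726012-147726261 on the minus strand, chr3:137340828-137341077 on the plus strand, chr2:32646345-32646594 on the plus strand and chr4:94739039-94739288 on the plus strand.
Flt1: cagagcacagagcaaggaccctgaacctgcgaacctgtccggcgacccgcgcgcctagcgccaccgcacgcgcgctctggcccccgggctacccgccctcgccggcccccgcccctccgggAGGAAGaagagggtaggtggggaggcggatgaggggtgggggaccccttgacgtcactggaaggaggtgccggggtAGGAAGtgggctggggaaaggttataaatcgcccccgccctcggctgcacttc
Emcn: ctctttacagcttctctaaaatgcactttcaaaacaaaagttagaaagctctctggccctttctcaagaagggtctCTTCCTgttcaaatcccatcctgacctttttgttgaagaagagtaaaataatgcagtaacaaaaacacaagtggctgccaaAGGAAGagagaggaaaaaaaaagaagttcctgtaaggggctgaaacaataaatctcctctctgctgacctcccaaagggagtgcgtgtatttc
Eng: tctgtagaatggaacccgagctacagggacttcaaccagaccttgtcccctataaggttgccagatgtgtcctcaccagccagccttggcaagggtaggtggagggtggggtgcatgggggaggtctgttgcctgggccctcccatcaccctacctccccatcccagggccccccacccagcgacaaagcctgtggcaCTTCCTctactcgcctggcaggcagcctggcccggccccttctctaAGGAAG
Tek: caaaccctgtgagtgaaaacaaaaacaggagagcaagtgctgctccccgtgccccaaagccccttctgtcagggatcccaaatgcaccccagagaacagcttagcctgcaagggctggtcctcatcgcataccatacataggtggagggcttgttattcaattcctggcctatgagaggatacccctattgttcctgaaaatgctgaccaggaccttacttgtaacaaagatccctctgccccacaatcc
The motif was found on either strand in 4 of the 6 windows (Flt1, Tie1, Emcn and Eng) and in 29.48% of all 32851 RefSeq windows of that length. Flt1, Emcn and Eng each held 2 matches and Tie1 held 1. Tek held none, and so did Kdr, which was also higher in papillomas and is not shown. Other GGAA cores were not marked: the Tek window holds the core on the reverse strand, as TTCC. Whether the motif goes with the levels of these genes was not tested. The related form CGGAAG, found in 13.59% of all windows, occurred in Tie1, and the longer form ACAGGAAG, which contains AGGAAG and was found in 2.9%, occurred in Emcn. The GC box GGGCGG occurred in Kdr and Flt1 and in 32.74% of all windows, and the TATA motif TATAAA in Flt1 and in 12.37%. No member window held the GATA motif AGATAA (9.99% of all windows), the SOX motif ACAATG (10.69%) or the forkhead motif GTAAACA (3.17%). GC content ranged from 40.8% in the Emcn window to 70.4% in that of Flt1, against a median of 52.4% over all windows.

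Fragments recovered from the deposited values numbered 11.1 to 24.6 M (mega) per library. The 10 members together received 427 to 1277 fragments in each epidermis library and 2844 to 4182 in each papilloma library. Single members were thinly covered in epidermis: Emcn had 6 to 27 fragments per library and Tek 14 to 78, so their values there carry a large counting error. Levels are in FPKM, fragments per length of transcript and depth of library, a unit that permits comparison between genes. All 8 keratinocyte genes examined were detected in every library, with a mean log2(FPKM + 1) of 9.35 to 9.80, and this mean did not separate papillomas from epidermis. The steady mean covers opposite moves of single genes: of the 8, 3 were higher and 2 lower in papillomas under vehicle, Krt15 going from a mean of 2437 to 51.1 FPKM, Krt14 from 2882 to 15781 and Dsg3 from 15.6 to 273. In epidermis, 16 skeletal muscle genes had a mean log2(FPKM + 1) of 6.91 to 9.43, against 0.46 to 3.98 in papillomas.

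Library 1 of vehicle epidermis stood apart. It held the highest epidermis value of all 10 members, with a summed FPKM of 26.5 against 12.4 and 8.57 in its group and 11.1, 17.6 and 16.7 in CWO epidermis. The same library was also highest among the 6 epidermis libraries in the mean of 14 fibroblast genes (3.60 against 2.50 to 3.13) and of 12 mural genes (2.06 against 1.55 to 1.90). The mean of 5 adipocyte genes was highest there too, at 4.47 against 2.01 to 3.82, with a summed FPKM of 401 against 44.2 to 211. It was not highest in the 16 skeletal muscle genes, at 8.85 against 9.43 in vehicle library 2, where the members' mean log2(FPKM + 1) was 1.02 against 1.70 in library 1. The part of these other tissues in the members' values was not tested.

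The junction genes were several-fold higher in papillomas than in epidermis. Pecam1 (mm9, chromosome 11, 106515532 to 106576595) was listed at 4.90, 2.06 and 1.35 FPKM in vehicle epidermis, 1.87, 3.16 and 3.56 in CWO epidermis, 10.1, 12.9 and 10.9 in vehicle papillomas and 9.49, 11.2 and 13.3 in CWO papillomas. All 6 papilloma libraries lay above all 6 epidermis libraries, whatever the treatment. Such separation was common: of all genes tested, papilloma and epidermis did not overlap in 74.5% under vehicle (33.8% higher in papillomas, 40.7% lower) and in 74% under CWO (31.4% and 42.7%). The ratio of group means was 4.08 under vehicle and 3.96 under CWO, and 6.64 under vehicle without epidermis library 1. Cdh5 (mm9, chromosome 8, 106625525 to 106668402), which encodes the cadherin of endothelial junctions, was listed at 2.57, 1.25 and 0.325 FPKM in vehicle epidermis, 0.477, 1.72 and 0.788 in CWO epidermis, 5.97, 6.74 and 7.06 in vehicle papillomas and 4.80, 5.86 and 7.60 in CWO papillomas. Its groups separated in the same way, with mean ratios of 4.77 and 6.12, and 8.37 under vehicle without epidermis library 1.

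Both VEGF receptors were under 1.1 FPKM in every epidermis library and near 3 to 4 FPKM in every papilloma library. Kdr (mm9, chromosome 5, 76329299 to 76374453) was listed at 1.02, 0.364 and 0.180 FPKM in vehicle epidermis, 0.247, 0.694 and 0.364 in CWO epidermis, 3.31, 3.84 and 3.22 in vehicle papillomas and 2.99, 3.49 and 4.11 in CWO papillomas. Flt1 (mm9, chromosome 5, 148373772 to 148537564) was listed at 0.810, 0.269 and 0.303 FPKM in vehicle epidermis, 0.464, 0.698 and 0.314 in CWO epidermis, 3.64, 3.02 and 3.10 in vehicle papillomas and 3.18, 3.95 and 3.61 in CWO papillomas. For neither receptor did papilloma and epidermis libraries overlap. The mean ratios of papilloma to epidermis were 6.62 and 8.11 for Kdr and 7.06 and 7.27 for Flt1, under vehicle and CWO respectively. Without epidermis library 1 the vehicle ratios were 12.7 and 11.4. The ratio of the signalling receptor to its decoy overlapped in all groups: Kdr to Flt1 FPKM was 0.533 to 1.35 in the epidermis libraries and 0.884 to 1.27 in the papilloma libraries.

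The angiopoietin receptor Tek and its partner Tie1 parted. Tie1 (mm9, chromosome 4, 118143796 to 118162454) was listed at 1.52, 0.717 and 0.267 FPKM in vehicle epidermis, 0.430, 1.08 and 0.750 in CWO epidermis, 4.00, 4.58 and 3.98 in vehicle papillomas and 3.36, 4.51 and 4.64 in CWO papillomas. Tek (mm9, chromosome 4, 94405991 to 94541630) was listed at 1.27, 0.816 and 0.331 FPKM in vehicle epidermis, 0.177, 0.595 and 0.417 in CWO epidermis, 0.761, 1.23 and 0.898 in vehicle papillomas and 0.928, 1.15 and 1.35 in CWO papillomas. Tie1 separated the tissues completely, with mean ratios of 5.02 (8.51 without epidermis library 1) and 5.54, whereas Tek overlapped between the tissues under vehicle (mean ratio 1.20) and was separated under CWO (2.88). The Tie1 to Tek ratio was 0.807 to 1.20 in vehicle epidermis, 1.799 to 2.42 in CWO epidermis, 3.72 to 5.26 in vehicle papillomas and 3.44 to 3.93 in CWO papillomas.

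Eng, Emcn and Plvap were also higher in papillomas. Eng (mm9, chromosome 2, 32502115 to 32538189) was listed at 2.89, 0.848 and 0.922 FPKM in vehicle epidermis, 1.03, 2.01 and 1.12 in CWO epidermis, 10.1, 10.9 and 9.87 in vehicle papillomas and 8.55, 9.50 and 12.7 in CWO papillomas. Emcn (mm9, chromosome 3, 137004042 to 137094033) was listed at 1.68, 0.684 and 0.509 FPKM in vehicle epidermis, 0.380, 0.927 and 1.39 in CWO epidermis, 5.48, 7.30 and 5.61 in vehicle papillomas and 6.06, 9.01 and 8.12 in CWO papillomas. In both genes the tissues did not overlap, with mean ratios of 6.61 and 7.38 for Eng and 6.40 and 8.60 for Emcn. Without epidermis library 1 the vehicle ratios were 11.6 for Eng and 10.3 for Emcn. Plvap (mm9, chromosome 8, 74021652 to 74035668) was the most abundant member everywhere, at 7.25, 4.67 and 3.58 FPKM in vehicle epidermis, 4.86, 5.27 and 6.37 in CWO epidermis, 13.7, 16.5 and 13.1 in vehicle papillomas and 13.4, 18.9 and 18.2 in CWO papillomas. Its tissues did not overlap either, but its mean ratios of 2.79 and 3.05 were the smallest among the members that separated under both treatments.

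Vwf did not share this rise. The gene (mm9, chromosome 6, 125502981 to 125636695) was listed at 2.57, 0.769 and 0.812 FPKM in vehicle epidermis, 1.11, 1.46 and 1.67 in CWO epidermis, 1.22, 1.23 and 1.01 in vehicle papillomas and 0.953, 1.05 and 1.11 in CWO papillomas. The groups overlapped under both treatments, with mean ratios of 0.831 and 0.736. The first of these rested on epidermis library 1: without it the vehicle ratio was 1.45 and the remaining 2 epidermis libraries lay below all 3 vehicle papillomas. Relative to Pecam1, Vwf was far lower in the tumours: the Vwf to Pecam1 ratio was 0.373 to 0.603 in the 6 epidermis libraries and 0.0837 to 0.120 in the 6 papilloma libraries. The tissues did not overlap in this ratio, with an exact permutation test giving the smallest p that 3 libraries against 3 allow, 0.1, under each treatment (two-sided; adjusted p = 0.24 over 24 ratio comparisons).

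**Figure D1:**
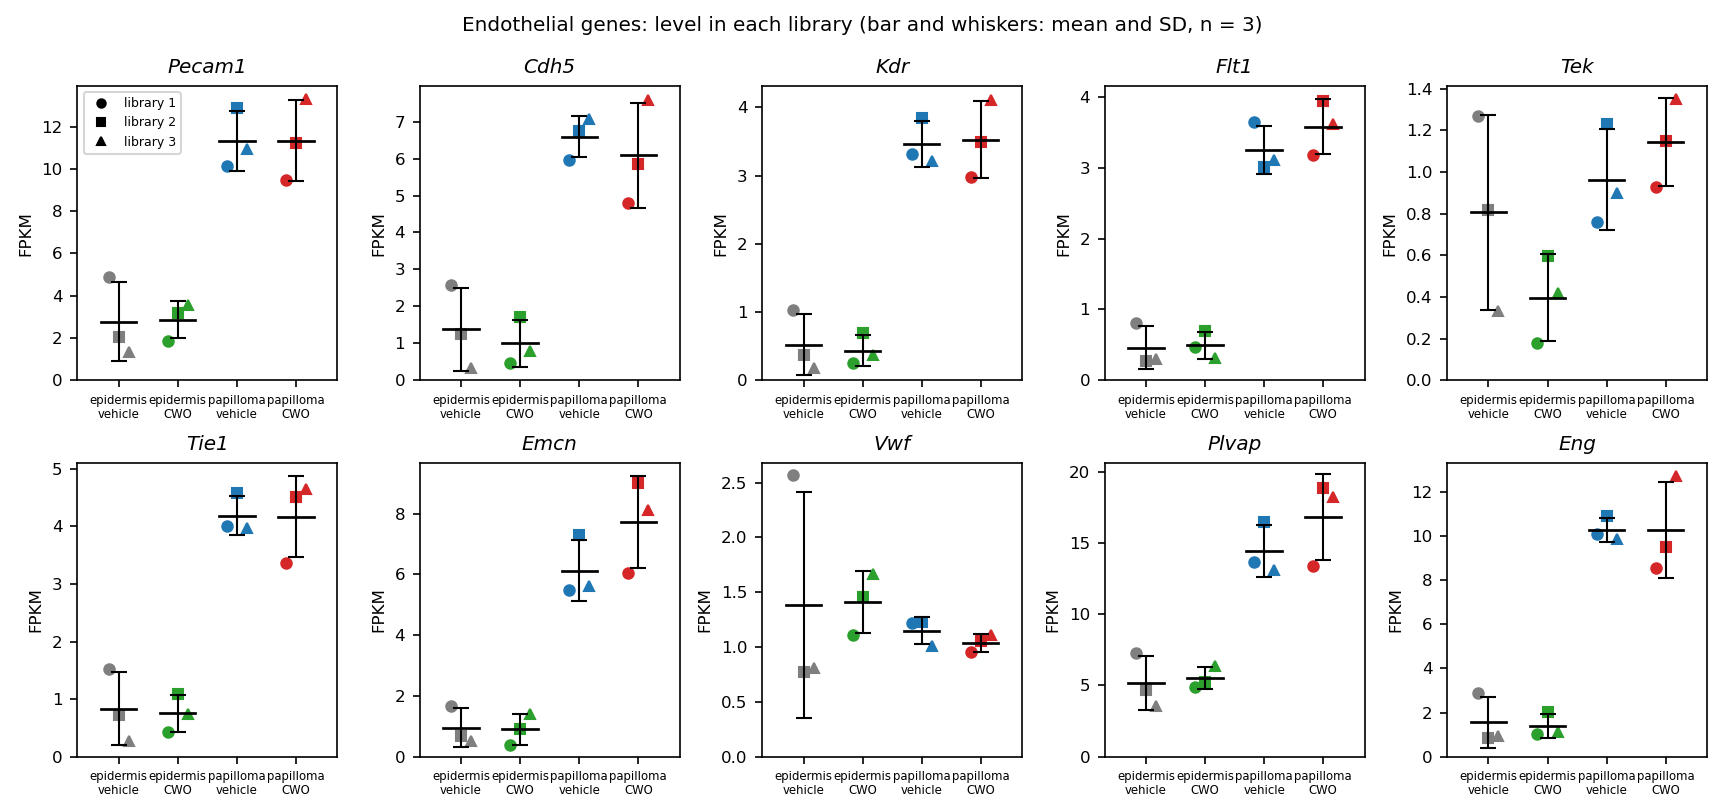
FPKM of each of the 10 endothelial genes (vertical axis, from 0) in each of the 12 libraries, by tissue and treatment; horizontal bars are group means and whiskers are SD (n = 3). Papilloma libraries stand above epidermis libraries for 8 genes under both treatments, Tek separates the tissues under CWO, and Vwf overlaps throughout. Of all genes tested, papilloma libraries stood above all epidermis libraries in 33.8% under vehicle and 31.4% under CWO.

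The test of papilloma against epidermis was limma on log2(FPKM + 1), with Benjamini-Hochberg adjustment over all genes tested. Of 12789 genes tested under vehicle, 70.2% passed an adjusted p of 0.05 in either direction, 31.8% being higher and 38.3% lower in papillomas; under CWO these shares were 68.8%, 29.1% and 39.7% of 12690. Of the 10 members, 9 were tested in each comparison, and 8 rose in papillomas under vehicle and 8 under CWO, namely Pecam1, Cdh5, Kdr, Flt1, Tie1, Emcn, Plvap and Eng. Pecam1 and Plvap reached an FPKM of 1 in every epidermis library, whereas others of the 8 passed the filter on low values through the papilloma libraries, so the count of tested members is not independent of the direction. The median difference over the tested members was 1.59 under vehicle and 1.66 under CWO, against medians of -0.07 and -0.12 over all genes tested. The 2 comparisons have no library in common.

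The largest fitted difference was that of Eng, 2.23 under vehicle (SE 0.27, adjusted p = 0.000129 by limma) and 2.24 under CWO (SE 0.20, adjusted p = 1.9e-05). Emcn rose by 1.90 under vehicle (SE 0.22, adjusted p = 0.000112) and by 2.22 under CWO (SE 0.22, adjusted p = 3.71e-05). Among the junction genes, Pecam1 rose by 1.81 and 1.69 and Cdh5 by 1.78 and 1.86, with adjusted p of 0.00106 or less. The VEGF receptors rose by 1.59 and 1.66 (Kdr) and by 1.56 and 1.62 (Flt1), Tie1 by 1.55 and 1.57, and Plvap by 1.36 and 1.45, with adjusted p of 0.000531 or less. The added 1 FPKM compresses the differences of genes as low as Kdr and Flt1 in epidermis: under vehicle that of Kdr was 0.88 with 3 FPKM added and 3.26 by limma-voom on the recovered fragments, and that of Flt1 was 0.86 and 3.03. Without vehicle epidermis library 1, all 8 members higher in papillomas under vehicle were still called, with differences of 1.59 (Plvap) to 2.58 (Eng).

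Vwf did not pass under vehicle (log2 difference -0.07, 95% interval -0.67 to 0.53, limma adjusted p = 0.823) or under CWO (-0.24, interval -0.52 to 0.05, adjusted p = 0.121). Its sign under vehicle rested on epidermis library 1: without that library the difference was 0.26 (adjusted p = 0.127). Tek fell below the filter. Its difference in mean log2(FPKM + 1) was 0.15 under vehicle and 0.62 under CWO, with exact two-sided permutation p of 0.7 and 0.1, where 0.1 is the smallest p possible. In a fit of all 12 libraries together, in which Tek was tested, it did not pass under vehicle (adjusted p = 0.502 by limma) and rose under CWO (0.62, adjusted p = 0.0107). With no filter and the libraries of 1 treatment alone, it likewise did not pass under vehicle (adjusted p = 0.575 by limma) and rose under CWO (adjusted p = 0.00706), so its call depends on the filter on low values.

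**Figure D2:**
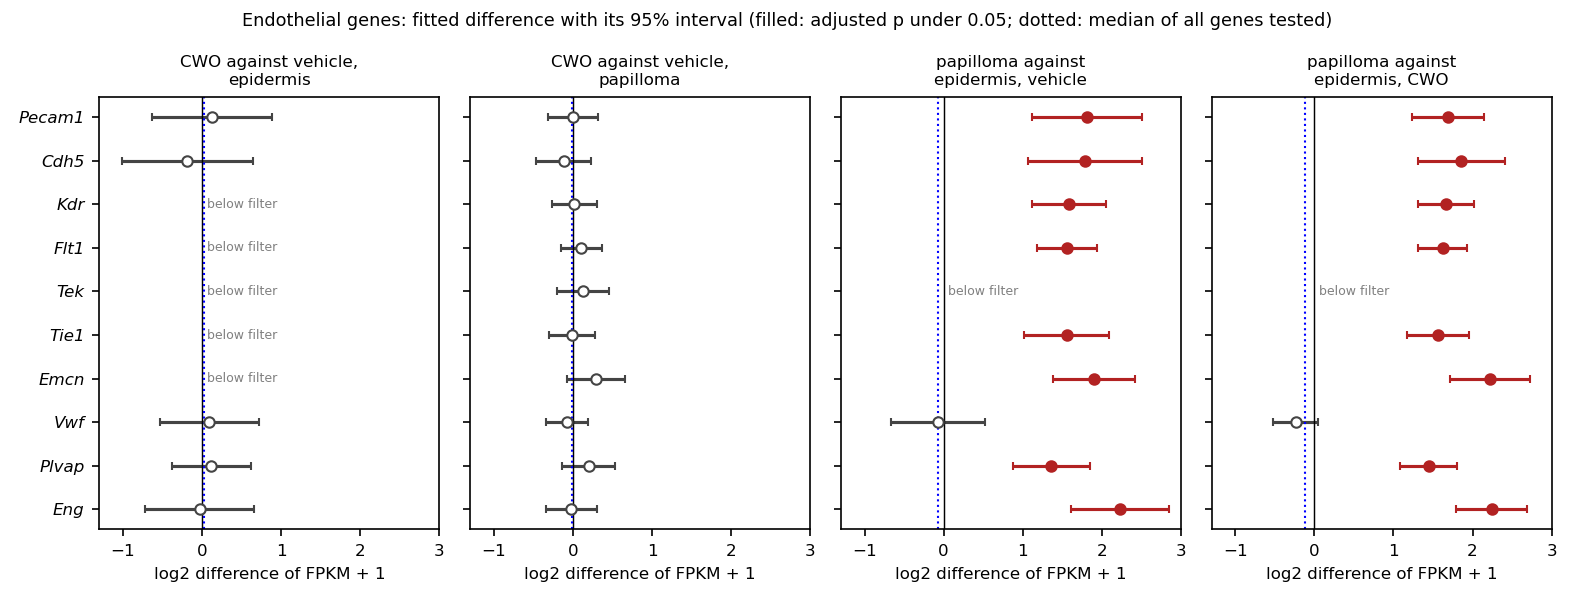
Fitted log2 difference of FPKM + 1 for each endothelial gene (horizontal axis) with its 95% interval in 4 comparisons; filled points passed an adjusted p of 0.05, and the dotted line is the median of all genes tested. In both tissue comparisons 8 genes lie between 1.36 and 2.24 while Vwf lies at or below 0, and in both treatment comparisons every interval spans 0.

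No member passed the test for an effect of CWO in epidermis at 24 h. Of 12288 genes tested, 1.99% passed in either direction (1.81% higher and 0.179% lower). Of the 5 members above the filter, limma called 0 and 0 had an unadjusted p under 0.05, and limma-voom on recovered fragments also called 0. The differences were 0.12 for Pecam1 (95% interval -0.64 to 0.88), -0.19 for Cdh5 (-1.02 to 0.64), 0.09 for Vwf (-0.53 to 0.71), 0.11 for Plvap (-0.39 to 0.61) and -0.03 for Eng (-0.72 to 0.66), with adjusted p of 0.887 or more. For the members below the filter, the exact two-sided permutation test gave p of 0.9 for Kdr, 0.8 for Flt1, 0.3 for Tek, 1 for Tie1 and 1 for Emcn, where 0.1 is the smallest possible. The groups overlapped for all 10 members, and the share of all genes that overlapped in this comparison was not counted. Tek had the lowest ratio of CWO to vehicle means, 0.492, and the Tie1 to Tek ratio did not overlap between CWO and vehicle epidermis (exact permutation p = 0.1, the smallest possible; adjusted p = 0.24 over 24 ratio comparisons).

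In papillomas, 6 weeks of CWO gave no call among the members either. Of 12143 genes tested, 0% passed: limma called 0 genes, 306 had an unadjusted p under 0.05, and limma-voom called 0. All 10 members were tested, 0 were called and 0 had an unadjusted p under 0.05. The differences ran from -0.12 for Cdh5 (95% interval -0.46 to 0.23) to 0.29 for Emcn (-0.08 to 0.65), with a median of 0.01 against -0.01 over all genes tested, and every adjusted p was 1. Plvap followed Emcn with 0.20 (-0.14 to 0.54), and the other members lay between these values, with Pecam1, Kdr, Tie1 and Eng within 0.02 of 0. In Emcn and Plvap, 2 of 3 CWO libraries exceeded all vehicle libraries, and CWO library 1 lay within the vehicle range or near its lower end. Relative to Pecam1, the ratios of Emcn (0.611 to 0.804 under CWO against 0.513 to 0.567) and Plvap (1.37 to 1.69 against 1.20 to 1.35) did not overlap between treatments, each with an exact permutation p of 0.1, the smallest possible, and an adjusted p of 0.24. In the authors' deposited table of papillomas, all 10 members likewise had an adjusted p of 1, and the smallest unadjusted p was 0.120 for Emcn with a log2 fold change of 0.35. The authors' deposited table of epidermis holds 176 genes with an adjusted p of up to 0.00544, and 0 of the members are among them.

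The effect of CWO in papillomas was then compared with that in epidermis, in a fit of all 12 libraries. Of 13185 genes tested 0.743% passed, 0.0303% with a higher and 0.713% with a lower effect in papillomas; of the 10 members limma called 0, 0 had an unadjusted p under 0.05, and limma-voom called 0. The difference of effects ran from -0.17 for Vwf (95% interval -0.85 to 0.52) to 0.48 for Tek (-0.11 to 1.06, adjusted p = 0.634), with a median of 0.07 over the members and -0.04 over all genes. This comparison shares its libraries with those of each tissue and adds no independent value.

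Within a group the members kept a recognisable order of level. Plvap stood first and Pecam1 next in all 4 groups, at 14.4 ± 1.82 and 11.3 ± 1.42 FPKM (SD, n = 3) in vehicle papillomas and 5.17 ± 1.89 and 2.77 ± 1.88 FPKM (SD, n = 3) in vehicle epidermis. In vehicle papillomas Eng followed at 10.3 ± 0.54 FPKM (SD, n = 3), then Cdh5, Emcn, Tie1, Kdr and Flt1, and Vwf and Tek came last at 1.15 ± 0.13 and 0.963 ± 0.24 FPKM (SD, n = 3). The ranges of Pecam1 and Eng, of Cdh5 and Emcn, of Kdr and Flt1 and of Vwf and Tek overlapped as neighbours in that order, while Plvap and Pecam1, Eng and Cdh5, Emcn and Tie1, Tie1 and Kdr, and Flt1 and Vwf did not. CWO papillomas gave a similar order, with Emcn above Cdh5, Flt1 above Kdr and Tek above Vwf, all within overlapping ranges. In vehicle epidermis every pair of neighbours overlapped. Vwf made up 6.18% to 9.71% of the members' summed FPKM in vehicle epidermis and 1.71% to 2.09% in vehicle papillomas, and Eng 6.81% to 10.9% and 16.0% to 17.3%.

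**Figure D3:**
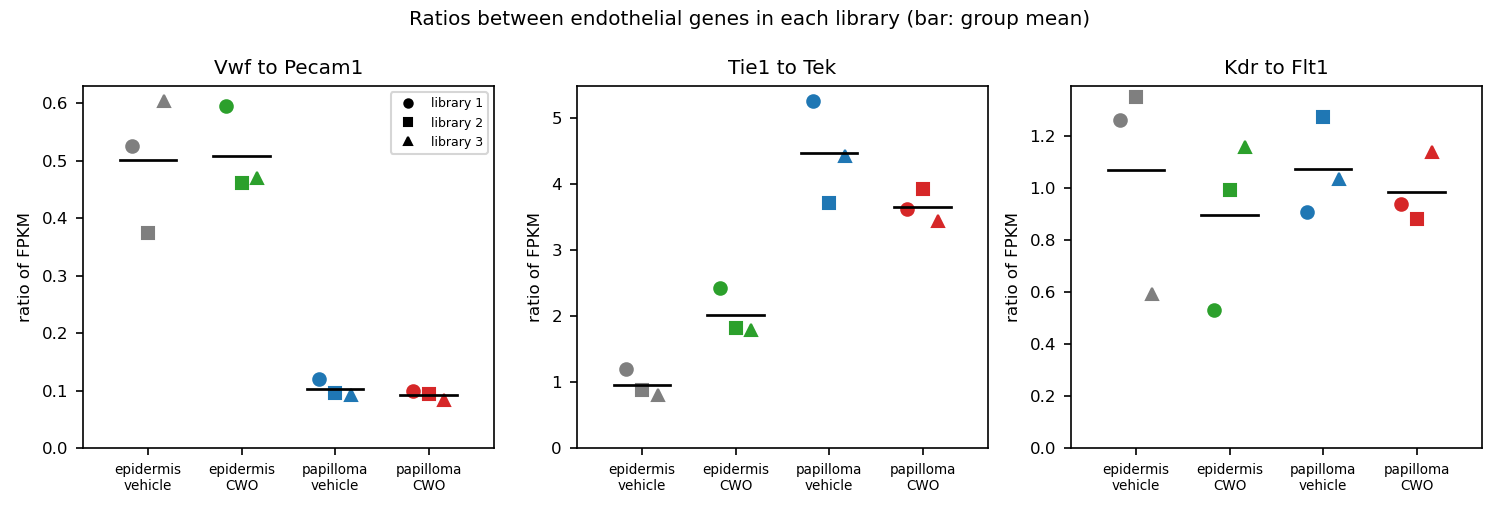
Ratio of FPKM between 3 pairs of endothelial genes (vertical axes, from 0) in each library, with group means as bars. Vwf to Pecam1 lies at 0.373 or above in epidermis and at 0.120 or below in papillomas, Tie1 to Tek is lowest in vehicle epidermis and highest in papillomas, and Kdr to Flt1 overlaps in all groups.

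The members also varied together between libraries of the same group. The correlation of each member with the mean of the other members, taken over deviations from group means in 12 libraries, ranged from 0.695 for Flt1 to 0.976 for Tie1. These values are descriptions: the genes share libraries and depth, and vehicle epidermis library 1 has the largest deviation (0.54 on the log2 scale, against -0.40 to 0.19 in the others). Among 13140 other genes, the 10 whose deviations followed the members most closely were Cd93 (r = 0.982), Mmrn2 (0.974), Ptprb (0.971), Rasd1 (0.964), Aqp1 (0.958), Sox18 (0.952), S1pr1 (0.946), Ramp2 (0.945), Egfl7 (0.938) and Gpr133 (0.936). Of these, 8 belong to the lists of other endothelial genes and transcription factors, which hold 25 and 13 genes, and Rasd1 and Gpr133 do not. The lists were chosen with earlier results of these data known, so this overlap is a description only. By the same measure the mean of 25 other endothelial genes had r = 0.992 with the members, 5 adipocyte genes 0.806, 14 fibroblast genes 0.695, 12 mural genes 0.677, 16 muscle genes 0.364 and 8 keratinocyte genes -0.840.

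Similarity within groups did not carry over to the difference between tissues for every gene. Cd93, an endothelial surface lectin-like receptor, had a mean of 0.389 FPKM in vehicle epidermis and 4.84 in vehicle papillomas, and Egfl7, a secreted protein of the endothelial matrix, 2.51 and 13.6. Ramp2, a partner of the adrenomedullin receptor, had 4.32 and 4.07 FPKM, and Rasd1 had 0.780 and 0.338. The epidermis mean of Ramp2 rested on vehicle library 1, at 7.98 FPKM against 3.43 and 1.54. Without that library its difference between the tissues was 0.59 (limma adjusted p = 0.0682). Of the list of 25 other endothelial genes, 23 were tested under vehicle, and 18 rose in papillomas, 2 fell (Darc and Rasip1) and 3 did not pass; of 21 tested under CWO 18 rose and 1 fell. These counts are partly set by the filter on low values: under vehicle 15 of the 23, Cd93 among them, passed it only with the help of papilloma libraries, and 14 of these rose. Of the 8 that reached an FPKM of 1 in all 3 vehicle epidermis libraries, 4 rose, 2 fell and 2 did not pass, and of the 8 such genes under CWO 6 rose and 1 fell. Of the most abundant, Cd34 rose under vehicle by 1.28, Aqp1 by 1.41, Egfl7 by 2.20 and Esam, a junction protein, by 1.89 (limma adjusted p of 0.0127 or less). Darc, which marks venules, fell by 0.90 (adjusted p = 0.0185) and the small-GTPase partner Rasip1 by 0.81 (adjusted p = 0.000385). Darc was under 1 FPKM in every papilloma library, so it passed the filter through vehicle epidermis alone. It was below the filter under CWO and without vehicle epidermis library 1. Of the 22 list genes tested without that library, 19 rose, 1 fell and 2 did not pass.

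Endothelial transcription factors were divided between the tissues. Of 10 tested under vehicle, 6 were higher in papillomas, 3 lower and 1 did not pass; 3 of those higher had passed the filter only with papilloma libraries. Sox7, Epas1 (the hypoxia-inducible factor of endothelium) and Ets1 rose by 2.07, 1.41 and 0.85, and Lmo2 fell by 0.91 (limma adjusted p of 0.000547 or less). The other members of the list that fell were Klf2, a factor induced by blood flow, by 0.84 and Hhex by 1.27. Hhex was below the filter without vehicle epidermis library 1, and of the 8 genes then tested 6 rose and 2 fell. Several of these factors, Sox7, Epas1 and Ets1 among them, are also made by epithelial cells.

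The ligands of the VEGF receptors moved in opposite directions. Vegfa, the main ligand of Kdr and Flt1, had a mean of 6.73 ± 1.44 FPKM (SD, n = 3) in vehicle epidermis and 64.0 ± 20.2 in vehicle papillomas and rose by 3.04 (limma adjusted p = 9.33e-06), and under CWO by 1.81 (adjusted p = 0.000258). Pgf, which binds Flt1 but not Kdr, rose by 2.32 and 1.65, and the co-receptors Nrp1 and Nrp2 rose by 1.25 and 1.26 under vehicle. Vegfb, also a ligand of Flt1, fell by 1.62 under vehicle (adjusted p = 3.16e-05) and by 1.44 under CWO, and Figf, which encodes VEGF-D, did not pass (-0.17, adjusted p = 0.318). In all, of 6 genes of this list tested under vehicle 4 were higher in papillomas, 1 lower and 1 did not pass. Of those higher, Pgf and Nrp1 had passed the filter only with papilloma libraries. In epidermis, Vegfa averaged 17.6 ± 6.46 FPKM (SD, n = 3) under CWO, a log2 difference from vehicle of 1.22 that did not pass (adjusted p = 0.0639).

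The angiopoietin and BMP or TGF-beta genes were split. Of 9 tested under vehicle, 5 rose in papillomas, 1 fell and 3 did not pass, with a median of 0.44. Without vehicle epidermis library 1, 4 rose, 0 fell and 5 did not pass. Under CWO 5 rose, 1 fell and 3 did not pass. Angpt2, the angiopoietin of remodelling vessels and a ligand of Tek, had a mean of 0.197 ± 0.16 FPKM (SD, n = 3) in vehicle epidermis and 2.80 ± 0.93 in vehicle papillomas and rose by 1.65 (limma adjusted p = 0.000124). It had passed the filter only with papilloma libraries. Id1, a target of BMP signalling, rose by 0.88, Id3 fell by 0.69, the receptor Tgfbr2 rose by 0.46, and Tgfb1 did not pass (0.27, adjusted p = 0.176). Without epidermis library 1 the difference of Id3 under vehicle was little changed, at -0.70 (SE 0.28). With fewer libraries it did not pass (limma adjusted p = 0.0619). Angpt1, the angiopoietin of quiescent vessels, was too low to test, at a mean of 0.348 FPKM in vehicle epidermis and 0.119 in vehicle papillomas, and the Eng ligand genes Gdf2 and Bmp10 were listed at 0 in every library.

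Genes of Notch signalling and vessel sprouting included 7 that rose in papillomas under vehicle and 3 that fell, of 11 tested; 6 of those that rose had passed the filter only with papilloma libraries. Jag1, a Notch ligand, rose by 1.06 and Dll4, the Notch ligand of tip cells, by 1.42 (limma adjusted p of 0.000661 or less). Pdgfb, the signal that recruits pericytes, fell by 1.55, Unc5b by 1.60 and Hey1 by 1.32, and Notch1 did not pass (-0.21, adjusted p = 0.196). Jag1, Notch1, Pdgfb and Unc5b are also made by keratinocytes. Of the adhesion genes of inflamed endothelium, Icam1, Selp and Vcam1 rose by 0.64, 0.91 and 0.71 under vehicle, while Sele was below the filter. Under CWO 2 of these genes were tested: Selp rose by 0.80, and Icam1 did not pass (-0.01). Selp (0.212 and 1.27 FPKM in vehicle epidermis and papillomas) and Vcam1 (0.312 and 1.14) passed the filter only with papilloma libraries, so their count says nothing of the list's direction. Of the lymphatic genes, Pdpn, which keratinocytes and fibroblasts also make, had a mean of 1.27 FPKM in vehicle epidermis and 15.5 in vehicle papillomas and rose by 2.75 (limma adjusted p = 0.000317). Lyve1, at 0.736 and 1.17 FPKM, did not pass (0.34, adjusted p = 0.163), and Flt4 and Mmrn1 were below the filter. Both Pdpn and Lyve1 had passed the filter only with papilloma libraries.

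Most marker genes of cells that accompany vessels, and of fibroblasts, were also higher in papillomas. Of 10 tested mural genes, which mark pericytes and vascular smooth muscle, 6 rose under vehicle, 2 fell and 2 did not pass; 3 of those that rose had passed the filter only with papilloma libraries. Acta2, smooth muscle actin, rose by 3.20 and Mcam by 2.45 (limma adjusted p of 6.53e-06 or less), Notch3 did not pass (0.22, adjusted p = 0.0659), and Des, which skeletal muscle also makes, fell by 5.01. Of 14 fibroblast genes, 11 rose, 1 fell and 2 did not pass, with a median of 2.33, and their mean log2(FPKM + 1) was 2.50 to 3.60 in epidermis and 4.69 to 5.25 in papillomas. Among the 11 that rose, 3 had passed the filter only with papilloma libraries. The summed fibroblast level was 228 to 312 FPKM in vehicle epidermis, 245 to 301 in CWO epidermis, 762 to 1027 in vehicle papillomas and 792 to 1161 in CWO papillomas, and no fibroblast gene was at 0 in any library. These are bulk RNA measurements, so more endothelial cells and more RNA of these genes per cell cannot be told apart, and the part of stromal content in the members' differences was not tested. The members did not move alike, as Vwf and Tek show. Genes of blood cells were less uniform. Of 8 red cell and platelet genes tested under vehicle, 6 were higher in papillomas, 1 lower and 1 did not pass. Under CWO 3 of 7 were higher and 4 did not pass. Of those higher, 3 under vehicle and 1 under CWO had passed the filter only with papilloma libraries. The globin gene Hba-a1 had a mean of 277 FPKM in vehicle epidermis and 1741 in vehicle papillomas, and Hbb-b2 had 40.6 and 668; near-identical globin genes can share reads, so the values of each are uncertain. Of 8 leukocyte genes, 3 were higher in vehicle papillomas, 4 lower and 1 did not pass, and 1 of those higher had passed the filter only with papilloma libraries. The summed level of the blood genes was 219 to 671 FPKM in the epidermis libraries and 442 to 3973 in the papilloma libraries, and its part in the members' differences was not tested.

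**Figure D4:**
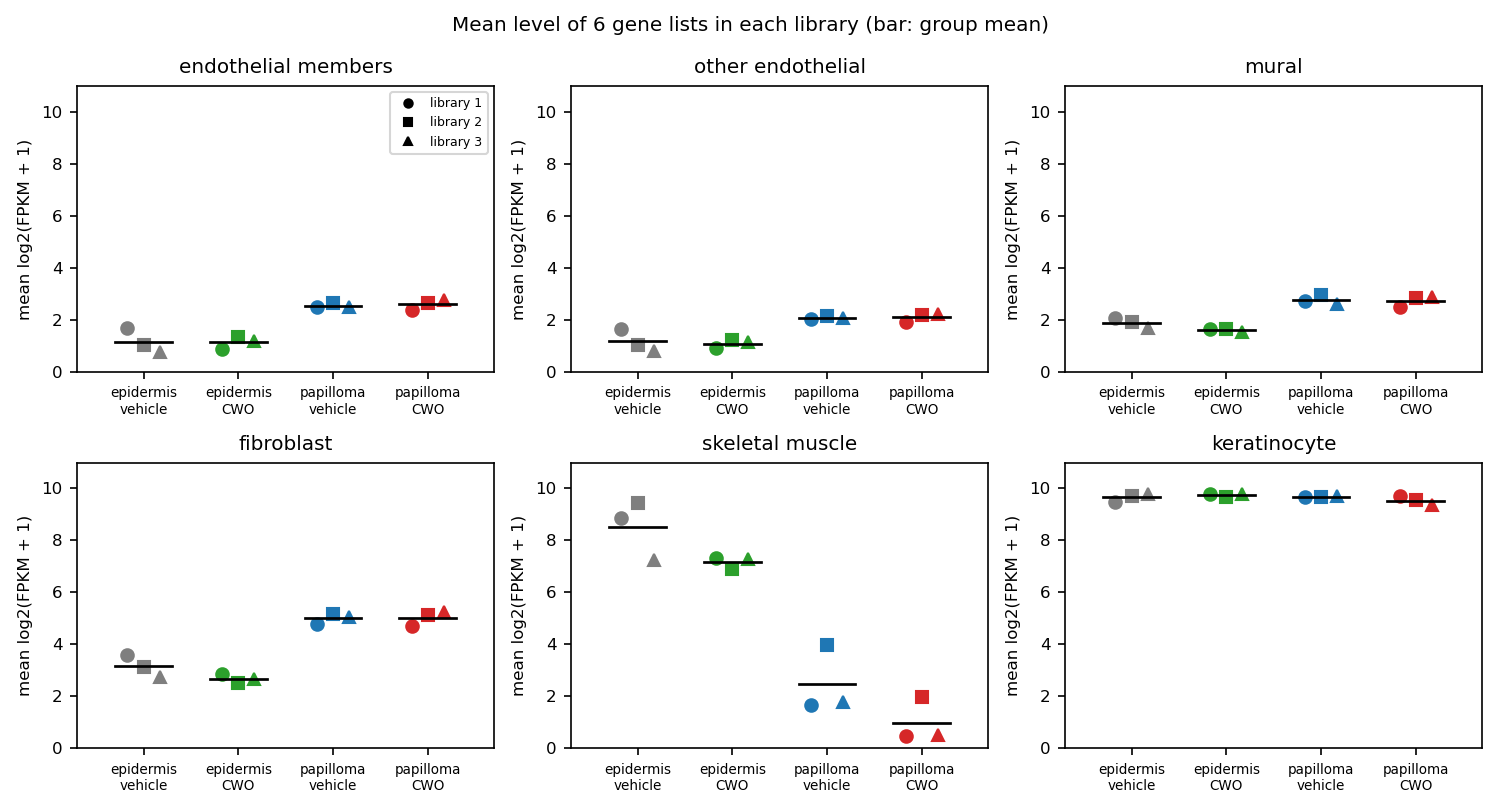
Mean log2(FPKM + 1) of 6 gene lists (vertical axis, the same scale in each panel) in each library, with group means as bars. Endothelial, mural and fibroblast genes are higher in papillomas, skeletal muscle genes are far higher in epidermis, and the mean of the keratinocyte genes, which moved singly in both directions, lies between 9.35 and 9.80.

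None of the genes of the vessel lists passed the test for CWO. Over the 8 lists of other endothelial genes, transcription factors, VEGF, angiopoietin, Notch, adhesion, lymphatic and mural genes, limma called 0 of 44 genes tested in epidermis, where 6 had an unadjusted p under 0.05 (Bmpr2, Cd34, Cxcr4, Des, Icam1 and Vegfa), and limma-voom called 0. In papillomas limma called 0 of 74, where 3 had an unadjusted p under 0.05 (Cd300lg, Gpihbp1 and Mcam), and limma-voom called 0. Fibroblast genes did change in epidermis. Of 11 tested, limma called Postn higher under CWO (1.55, adjusted p = 0.00759) and the collagen genes Col1a1 (-1.28, adjusted p = 0.0421) and Col1a2 (-1.18, adjusted p = 0.0462) lower, with a median of -0.93 over the 11. Without vehicle library 1 most of the collagen differences remained, but neither passed. Col1a1 was -1.05 (limma adjusted p = 0.116) and Col1a2 -0.96 (limma adjusted p = 0.136). The median was then -0.52, and Postn was still called (1.73, limma adjusted p = 0.0131). Over all genes, calls fell from 245 to 83 in that fit.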

How the data were processed

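PolyA RNA of 12 libraries was sequenced. Per the submitters' processing notes, the authors used bcl2fastq 1.8.4, TopHat2 2.0.4, mm9, Cufflinks 2.0.2 and DESeq. The deposited files list FPKM per gene, and symbols on several rows (248) were added up. In the authors' deposited comparison tables, each gene has its average signal by group (normalised counts), a ratio (fold), the log2 ratio and a p-value. Every value of the 10 members had passed Cufflinks, and failed values of other genes were dropped. Fragments were recovered from FPKM and its interval, which spans 2 SD of a fragment count on each side, and they limit the precision of low genes. Positions in the files count from 0 and were raised by 1.

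Differences were tested with limma 3.58.1 (R 4.3.3; trend on mean level) on log2(FPKM + 1). A gene needed an FPKM of 1 or more in 3 of the libraries fitted and 2 or more values in each group. Short non-coding genes (740) were removed by name. The threshold was 0.05 after Benjamini-Hochberg adjustment over all genes tested (two-sided). The procedure was tested on data simulated from more abundant genes, without the filter on low values. Genes as low as the members in epidermis were not covered. Members below the filter, and ratios, had exact permutation tests.

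The members and lists were chosen with earlier results of these data known. All 10 members were named in each comparison, together with up to 4 of the most abundant genes of each other list. Other list genes in the text (Darc, Rasip1, Klf2, Hhex, Pgf, Nrp1, Angpt2, Angpt1, Gdf2, Bmp10, Dll4, Hey1, Bmpr2, Cxcr4, Cd300lg, Gpihbp1, Krt15, Dsg3 and Col1a2) were picked after their values were seen. Alternatives were other pseudocounts, filters, scalings and limma settings, limma-voom, a replicate block, a muscle covariate, and libraries left out.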

Additional observations from a re-analysis of the deposited data

How the results depend on the processing

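The 8 members called higher in papillomas kept their direction and their call in every alternative in which they were tested. Members called numbered 7 to 8 under vehicle and 6 to 8 under CWO when a library was left out, because Flt1, or Kdr and Flt1, then fell below the filter; with no filter, or all 12 libraries in 1 fit, Tek made 9 under CWO. Median-ratio scaling moved the median of all genes under CWO from -0.116 to -0.011, and quantile normalization to 0.0165. No member was called in the treatment comparisons or in the difference of effects under any alternative. The cause of the changes below was not tested.

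Genes called in epidermis numbered 44 with no filter, 630 with array weights, 162 by limma-voom, 656 with all 12 libraries in 1 fit, 13 with the muscle mean as covariate, 12 without vehicle libraries 1 and 2, and 64 to 684 with 1 library left out. In papillomas they numbered 1 with short genes kept and 1 with all 12 libraries. For the difference of effects they numbered 63 with no filter, 321 with array weights, 49 by limma-voom, 17 without vehicle libraries 1 and 2, and 34 to 328 with 1 library left out. With the replicate block they numbered 54 in epidermis, 4 in papillomas and 57 for the difference. Same-numbered libraries correlated at 0.03, -0.44 and -0.36 in epidermis and 0.28, 0.14 and 0.02 in papillomas. With 3 libraries per group, these values cannot settle whether the labels' numbers pair libraries.

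Signs turned for uncalled members near 0. For CWO in epidermis, Eng was 0.00310 with 0.1 FPKM added, 0.0633 by limma-voom, 0.0460 with the muscle covariate and 0.290 without vehicle libraries 1 and 2. Cdh5 was 0.307 with the covariate, and with array weights Pecam1 was -0.287, Vwf -0.212 and Plvap -0.102. Leaving out 1 library gave -0.165 to 0.5003 for Pecam1, -0.554 to 0.00425 for Cdh5, -0.083 to 0.424 for Vwf, -0.0797 to 0.345 for Plvap and -0.219 to 0.318 for Eng. For CWO in papillomas, Pecam1 was 0.00717 with median-ratio scaling, 0.0159 with quantile normalization and 0.125 with the covariate, Tie1 0.0202 with quantile normalization and 0.111 with the covariate, and Eng 0.000107 with the covariate. Leaving out 1 library gave -0.115 to 0.108 for Pecam1, -0.265 to 0.0192 for Cdh5, -0.0731 to 0.106 for Kdr, -0.0799 to 0.106 for Tie1 and -0.170 to 0.0903 for Eng. For Vwf between the tissues under vehicle, limma-voom gave 0.0332, the fit without vehicle libraries 1 and 2 gave 0.245, and leaving out 1 library gave -0.245 to 0.262. For the difference of effects, 0.1 FPKM added gave Flt1 -0.0210, Tie1 -0.0598 and Eng -0.0256, and array weights gave Pecam1 0.329 and Vwf 0.162. Limma-voom gave Cdh5 -0.211, Kdr -0.134, Flt1 -0.0927, Tie1 -0.327 and Eng -0.106. Without vehicle libraries 1 and 2 Cdh5 was -0.658, Kdr -0.253, Flt1 -0.0816, Tie1 -0.463, Emcn -0.0095, Plvap -0.301 and Eng -0.310. Leaving out 1 library gave -0.503 to 0.162 for Pecam1, -0.276 to 0.438 for Cdh5, -0.148 to 0.241 for Kdr, -0.101 to 0.161 for Flt1, -0.244 to 0.251 for Tie1, -0.499 to 0.00805 for Vwf, -0.146 to 0.279 for Plvap and -0.338 to 0.1996 for Eng.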
